A study of Homo sapiens with 17 samples.

Results

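The 10 genes described here encode cytosolic heat shock chaperones, their partners, the chaperone of the endoplasmic reticulum HSPA5 and the factor HSF1. They are HSF1 (ENSG00000185122), HSPA1A (ENSG00000204389), HSPA1B (ENSG00000204388), HSPA8 (ENSG00000109971), DNAJB1 (ENSG00000132002), HSPH1 (ENSG00000120694), BAG3 (ENSG00000151929), HSP90AA1 (ENSG00000080824), HSPB1 (ENSG00000106211) and HSPA5 (ENSG00000044574). They were chosen by name, and each was read from the count table by its Ensembl ID, so that 10 of the 19867 gene IDs listed are covered. All 10 passed edgeR's filter on low counts in the fit of each experiment and in the fit of all labelled libraries. The choice used no measured value, but it was made with earlier results of these data known.

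Heat shock proteins hold unfolded proteins in solution, refold them or pass them on for degradation. In unstressed cells HSF1 is held inactive by chaperones. When unfolded proteins draw the chaperones away, HSF1 forms trimers and binds heat shock elements, which are repeats of the unit nGAAn in alternating orientation, and transcription of the inducible chaperone genes rises within minutes. Liver carcinoma cells often hold much of these proteins. HSPA5 answers mainly to another pathway, the unfolded protein response of the endoplasmic reticulum.

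SNU-761, a human line from a liver carcinoma labelled as wild type, was treated for 4 h and its new RNA read out by SLAM-seq. Thiouridine that cells build into RNA is alkylated with iodoacetamide and then sequenced as C instead of T, so that T>C reads mark RNA made during labelling. In the VT107 experiment, VT107, a small molecule inhibitor of the TEAD transcription factors, was given at 2.15 µM or 0.1 µM and compared with its vehicle DMSO (2 libraries each). In the intetumumab experiment, a biosimilar of intetumumab, an antibody against integrins with the ITGAV chain, was given at 5 µg/ml or 1.5 µg/ml and compared with a human isotype IgG1 at 5 µg/ml (3 libraries each). Each experiment also had 1 library from cells without thiouridine.

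The 15 labelled libraries held between 435343 and 1778876 counts, of which the 10 genes took between 0.246% and 0.457%. Values are counts per 1e6 after TMM scaling (CPM) of T>C reads. A gene's T>C count depends both on how much RNA was made and on how much of it was lost before collection, and in these bulk samples less RNA in every cell cannot be told apart from fewer cells making it. The labels do not state whether libraries of 1 group come from separate cultures. The p-values therefore set each difference against a spread, estimated from these libraries, that may be technical. BAG3 had 5 to 38 counts per library and HSF1 had 4 to 40, and the lowest of these, 4 counts, has an exact 95% Poisson interval of 1.09 to 10.2, which covers counting error only. The other 8 genes had between 20 and 1424 counts per library.

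The sequences upstream of these genes were searched for the letters of the heat shock element. The RefSeq (GRCh38.p14) windows used here cover 9 of the 10 genes, all but HSF1. The 250 bases before each start were searched on both strands. The head-to-head pair of heat shock units, GAANNTTC, occurred in 6 of the 9 genes (HSPA1A, HSPA1B, DNAJB1, HSP90AA1, HSPA8 and HSPB1), against 5.78% of all 35116 windows of that length. The tail-to-tail pair TTCNNGAA occurred in 2 genes (HSP90AA1 and HSPA8), against 6.62% of windows. The 3-unit form, in which a further GAA follows GAANNTTC after 2 bases so that both pairs are present, occurred in the same 2 genes, against 0.441%. The ER stress response element, CCAAT and CCACG with 9 bases between them, was found only for HSPA5 among the 9, against 0.074% of windows. The letters GGAATG, a core of the TEAD motif, were found upstream of 0 of the 9 genes and in 11.9% of all windows. A match is a description of the letters and not a bound site, and a missing match says only that these letters are not in this window. DNAJB1 has 3 listed starts and HSP90AA1 has 2, and a gene was counted where any of its windows held a match.

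A window of HSP90AA1 also holds a head-to-head pair but is not shown here. The 5 sequences that follow belong to the other genes with such a pair and run 5′ to 3′ towards the start of the gene. Capitals mark the heat shock unit pairs and the 3-unit form. They lie at chr7:76302423-76302672 on the plus strand for HSPB1, chr19:14518398-14518647 on the minus strand for DNAJB1 (of its 3 starts the one with matches), chr6:31815293-31815542 on the plus strand for HSPA1A, chr6:31827488-31827737 on the plus strand for HSPA1B, and chr11:123062137-123062386 on the minus strand for HSPA8. The last base of the GAANNTTC match nearest the start lies 175 bases before it in HSPB1, 40 in DNAJB1, 99 in HSPA1A, 98 in HSPA1B and 43 in HSPA8.
HSPB1: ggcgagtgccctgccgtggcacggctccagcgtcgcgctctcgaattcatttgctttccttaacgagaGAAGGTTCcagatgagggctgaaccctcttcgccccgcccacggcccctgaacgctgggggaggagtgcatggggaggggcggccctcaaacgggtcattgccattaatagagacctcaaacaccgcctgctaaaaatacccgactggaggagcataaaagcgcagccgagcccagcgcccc
DNAJB1: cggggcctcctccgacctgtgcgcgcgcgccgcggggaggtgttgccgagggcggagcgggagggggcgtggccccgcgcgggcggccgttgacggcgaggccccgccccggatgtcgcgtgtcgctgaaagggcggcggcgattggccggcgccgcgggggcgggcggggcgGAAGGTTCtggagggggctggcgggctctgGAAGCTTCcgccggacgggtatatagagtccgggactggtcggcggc
HSPA1A: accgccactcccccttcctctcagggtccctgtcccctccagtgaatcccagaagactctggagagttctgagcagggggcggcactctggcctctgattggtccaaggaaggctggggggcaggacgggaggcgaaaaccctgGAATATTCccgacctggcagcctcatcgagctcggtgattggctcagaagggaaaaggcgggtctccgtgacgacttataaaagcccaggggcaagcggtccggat
HSPA1B: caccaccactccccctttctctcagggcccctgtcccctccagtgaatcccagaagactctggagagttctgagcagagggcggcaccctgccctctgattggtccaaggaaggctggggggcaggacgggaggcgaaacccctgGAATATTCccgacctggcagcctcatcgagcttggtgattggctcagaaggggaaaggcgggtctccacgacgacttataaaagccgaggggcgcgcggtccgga
HSPA8: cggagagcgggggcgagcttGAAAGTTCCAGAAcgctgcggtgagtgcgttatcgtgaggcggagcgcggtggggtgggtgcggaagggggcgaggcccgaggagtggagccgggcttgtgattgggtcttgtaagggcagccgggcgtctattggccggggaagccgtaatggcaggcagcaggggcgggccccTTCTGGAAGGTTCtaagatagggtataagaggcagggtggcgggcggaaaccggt
HSPB1 has 1 pair far from its start, DNAJB1 has 2 pairs close to it, and HSPA8 carries its pairs at both ends of the window. The windows of HSPA1A and HSPA1B are nearly the same, with 235 of 249 aligned bases identical (94.4%).

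HSPA1A and HSPA1B, which encode the same inducible HSP70, lie on chromosome 6 with 9795 bases between them, and reads could be split between such copies in a way that is not given in the sources used here. Every HSPA1A count in the 15 libraries was even. A common divisor above 1 was found for 1456 of 9757 genes examined (14.9%), and among the 10 genes described here for HSPA1A only. Why its counts were even was not tested. HSPA1B took between 9.54% and 30.0% of the counts of the pair, with the HSPA1A counts used as deposited. The sums of both copies given below use them too. Shares and sums alike would change if the HSPA1A counts were divided by 2, and neither was computed on divided counts. The highest shares, 24.7% and 30.0%, were those of the 2 libraries at 0.1 µM VT107.

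**Figure D1:**
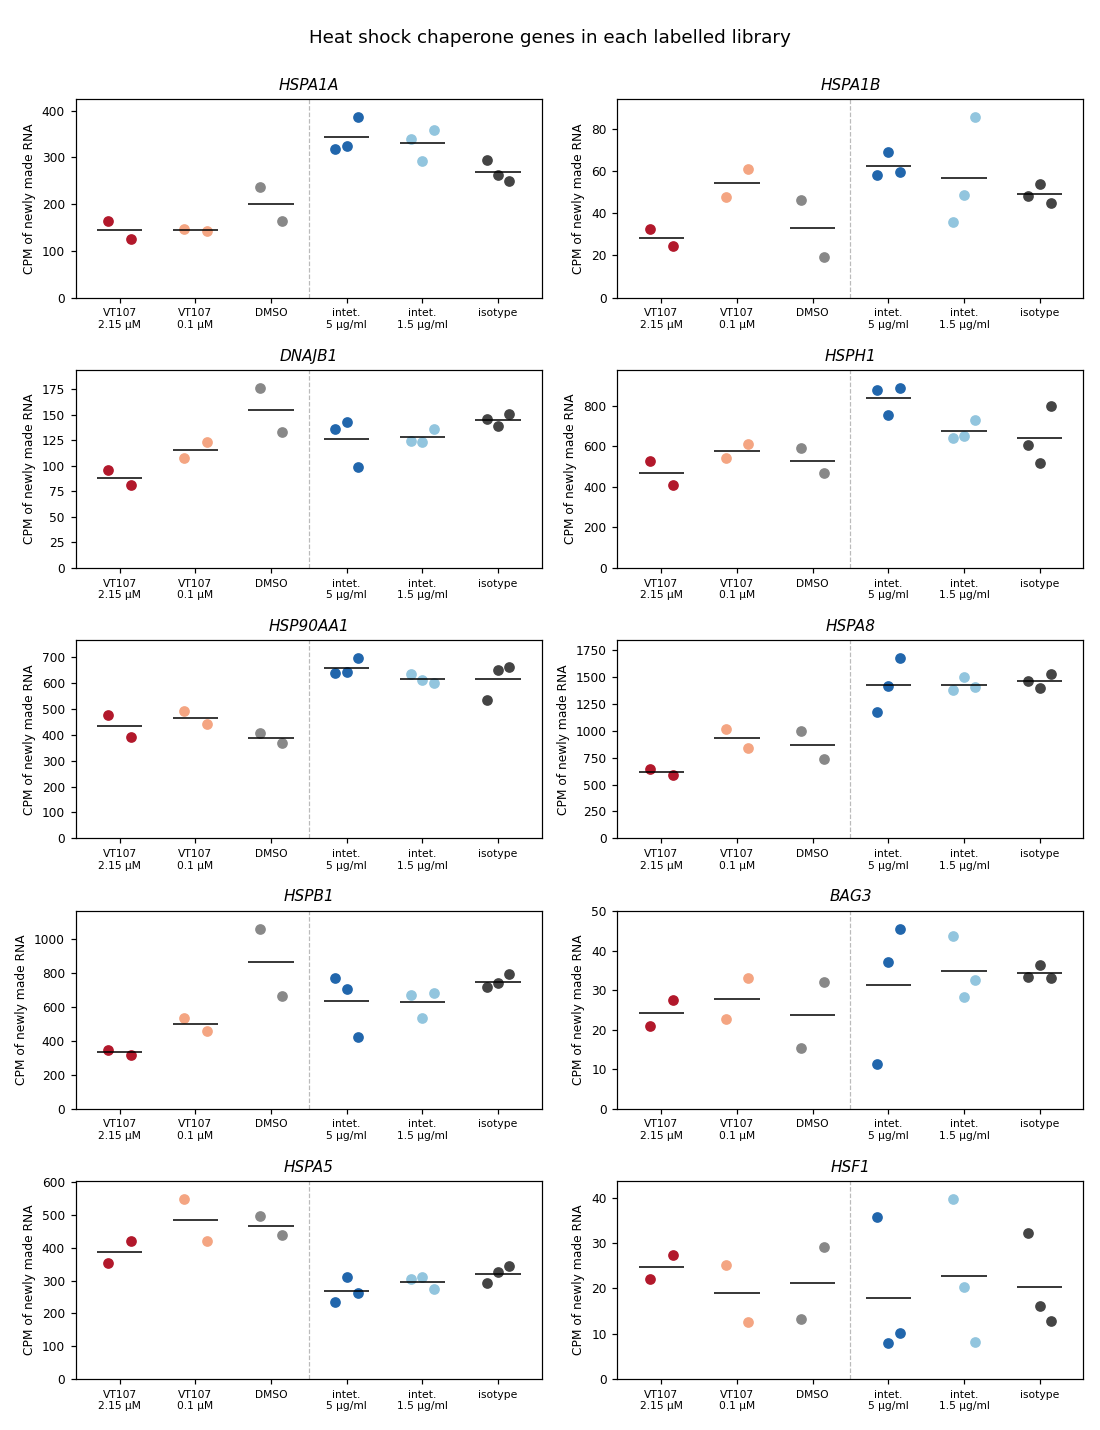
CPM of newly made RNA (vertical axes, linear from 0) of each of the 10 genes in each labelled library, with 1 point per library and a bar at the group mean; the dashed line parts the VT107 experiment from the intetumumab experiment. HSPB1 is lowest in the 2 libraries at 2.15 µM VT107 (318 and 345 CPM), and HSPA1A, HSP90AA1 and HSPA8 lie lower and HSPA5 higher throughout the VT107 experiment.

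The question of the VT107 experiment was what inhibition of TEAD does to transcription within hours. At 2.15 µM against DMSO, the value furthest from 0 among the 10 genes was that of HSPB1, which encodes the small heat shock protein HSP27, a chaperone that holds unfolded proteins without ATP. HSPB1 was at 345 and 318 CPM in the libraries at 2.15 µM, against 1060 and 661 CPM in the DMSO libraries. Both treated libraries lay below both DMSO libraries, and the DMSO libraries were themselves far apart. The means were 331 ± 19.1 CPM at 2.15 µM and 860 ± 282 CPM in DMSO (SD, n = 2 each). The log2 fold change was -1.37 (SE 0.25, 95% interval -1.94 to -0.81 before any adjustment over genes), which is 2.59-fold lower at 2.15 µM, at percentile 2.45 of all genes tested. It did not pass edgeR's quasi-likelihood test over 10083 genes (adjusted p = 0.106).

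That call depended on the tool and on single libraries. DESeq2 called HSPB1 (adjusted p = 9.39e-06), as did edgeR without the filter on low counts (adjusted p = 0.00135), in a fit of all 15 labelled libraries (adjusted p = 0.0151) and without DMSO replicate 2 (log2 fold change -1.66, adjusted p = 0.0410). Without DMSO replicate 1, the higher one, the log2 fold change was -1.01 (adjusted p = 0.205). These settings also called more of all genes: 2.51% with DESeq2, 1.47% without the filter, 1.52% in the fit of 15 libraries and 0.246% without DMSO replicate 2. Over all 15 alternatives the adjusted p lay between 9.39e-06 and 0.688, and the log2 fold change was below 0 in each of the 15.

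DNAJB1, the HSP40 partner that delivers unfolded proteins to HSP70 and starts its ATP cycle, stood next in size. It was at 96.4 and 80.8 CPM at 2.15 µM, against 177 and 133 CPM in DMSO, so that the groups did not overlap (log2 fold change -0.80, SE 0.29, edgeR adjusted p = 0.337). HSPA8, the constitutive HSP70 that also uncoats clathrin vesicles, was at 641 and 586 CPM at 2.15 µM, against 994 and 736 CPM in DMSO. Again both treated libraries were lower (log2 fold change -0.50, SE 0.20, edgeR adjusted p = 0.393). Without DMSO replicate 1, in which HSPB1 and DNAJB1 stood highest of the 6 libraries, the log2 fold changes were -0.60 for DNAJB1 and -0.28 for HSPA8.

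The genes of inducible HSP70 overlapped between the groups. HSPA1A was at 164 and 126 CPM at 2.15 µM, against 236 and 163 CPM in DMSO, and the higher treated library lay between the DMSO libraries, near the lower one (log2 fold change -0.46, SE 0.28, edgeR adjusted p = 0.602). HSPA1B was at 32.5 and 24.3 CPM, against 46.4 and 19.4 CPM in DMSO (log2 fold change -0.19, SE 0.48). Without DMSO replicate 1 the log2 fold changes were -0.18 for HSPA1A and 0.54 for HSPA1B, and without DMSO replicate 2 they were -0.69 for HSPA1A and -0.68 for HSPA1B. With the counts of both copies summed the log2 fold change was -0.42 (SE 0.28, edgeR adjusted p = 0.633). With counts divided by their common divisor, that of HSPA1A was -0.45 (SE 0.32, edgeR adjusted p = 0.651).

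The other partners of HSP70 and the HSP90 gene showed no shared direction. HSPH1, an HSP110 that exchanges the nucleotide of HSP70, was at 530 and 410 CPM at 2.15 µM, against 592 and 467 CPM in DMSO (log2 fold change -0.17, SE 0.22). BAG3, an exchange factor that links HSP70 to autophagy, was at 20.9 and 27.5 CPM, against 15.5 and 32.0 CPM in DMSO (log2 fold change 0.01, SE 0.52). HSP90AA1, the inducible form of HSP90, was at 477 and 392 CPM, against 405 and 367 CPM in DMSO (log2 fold change 0.17, SE 0.20). In all 3 of these genes the groups overlapped.

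HSPA5, the HSP70 of the endoplasmic reticulum, was at 355 and 420 CPM at 2.15 µM, against 497 and 437 CPM in DMSO, with no overlap (log2 fold change -0.27, SE 0.22, edgeR adjusted p = 0.699). HSF1 itself was at 22.0 and 27.5 CPM, against 13.2 and 29.1 CPM in DMSO (log2 fold change 0.21, SE 0.58). Its interval, -1.13 to 1.54, takes in 0 and changes of more than 2-fold in either direction. These libraries therefore do not tell such a change of HSF1 from none.

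By edgeR's test 0 of the 10 genes were called at 2.15 µM, where 0.109% of all 10083 genes were called, all of them lower than in DMSO. An unadjusted p under 0.05 was reached by 3 of the 10 (HSPB1, DNAJB1 and HSPA8) and by 11.6% of all genes. DESeq2 called 1 of the 10 and 253 of all genes (2.51%). It gave no adjusted p for HSPA1B, BAG3 and HSF1, so that these could not be called by it. Of the 10 genes, 3 had a log2 fold change above 0 and 7 below it, with a median of -0.23 against 0.03 over all genes. The treated libraries lay wholly below DMSO in 4 of the 10 genes, against 20.4% of all genes, and wholly above in 0, against 24.2%.

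At 0.1 µM HSPB1 again had the value furthest below 0, and HSPA1B the value furthest above. HSPB1 was at 536 and 458 CPM at 0.1 µM, against the same DMSO libraries (1060 and 661 CPM), with no overlap. The log2 fold change was -0.78 (SE 0.24, 1.72-fold lower at 0.1 µM), which edgeR did not call (adjusted p = 0.293) and DESeq2 did (adjusted p = 0.0479), while it called 1.86% of all genes. Without DMSO replicate 1 the log2 fold change of HSPB1 was -0.43 (edgeR adjusted p = 0.483), and without DMSO replicate 2 it was -1.08 (edgeR adjusted p = 0.112). DNAJB1 was at 108 and 123 CPM, against 177 and 133 CPM in DMSO, with no overlap (log2 fold change -0.42, SE 0.29). HSPA1A was at 146 and 142 CPM, against 236 and 163 CPM in DMSO, with no overlap (log2 fold change -0.46, SE 0.28). The values of both moved with the DMSO library left out, to -0.22 for DNAJB1 and -0.19 for HSPA1A without replicate 1, and to -0.60 for DNAJB1 and -0.70 for HSPA1A without replicate 2.

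HSPA1B stood above DMSO, with 47.8 and 61.0 CPM at 0.1 µM against 46.4 and 19.4 CPM in DMSO (log2 fold change 0.74, SE 0.48, edgeR adjusted p = 0.592). These values rest on 40 and 48 counts at 0.1 µM and 42 and 20 in DMSO, and the lower treated library lay just above the higher DMSO library. Without DMSO replicate 1 the log2 fold change was 1.47, and without DMSO replicate 2 it was 0.24, so that its size rests on single DMSO libraries. The difference did not pass, and with both copies summed the log2 fold change was -0.22 (SE 0.28). HSP90AA1 was at 491 and 441 CPM, against 405 and 367 CPM in DMSO, with no overlap (log2 fold change 0.28, SE 0.20). The other 5 genes (HSPH1, HSPA8, BAG3, HSPA5 and HSF1) overlapped with DMSO. Their log2 fold changes were 0.13 for HSPH1, 0.11 for HSPA8, 0.22 for BAG3 (SE 0.53), 0.06 for HSPA5 and -0.17 for HSF1 (SE 0.61). Among them HSPH1 was at 542 and 612 CPM at 0.1 µM, against 592 and 467 CPM in DMSO, and HSPA8 was at 1016 and 843 CPM, against 994 and 736 CPM in DMSO. HSPA5 was at 549 and 420 CPM at 0.1 µM, against 497 and 437 CPM in DMSO.

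By edgeR's test 0 of the 10 genes were called at 0.1 µM, as were 0% of all 10083 genes. An unadjusted p under 0.05 was reached by 1 of the 10, HSPB1, and by 12.1% of all genes. DESeq2 called that gene and 188 of all genes (1.86%). Among the 10, at least BAG3 and HSF1 had no adjusted p from DESeq2 here. The median log2 fold change of the 10 was 0.08, against 0.01 over all genes. Libraries lay wholly below DMSO in 3 of the 10 (19.4% of all genes) and wholly above it in 2 (20.4%). Both doses were set against the same 2 DMSO libraries, so their values are not independent of each other.

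Set directly against each other, the doses gave 0 calls among the 10 genes and 0% of all genes by edgeR, and DESeq2 called 0 of the 10 and 0.0694% of all genes. HSPA8 was at 641 and 586 CPM at 2.15 µM, against 1016 and 843 CPM at 0.1 µM, with no overlap (log2 fold change -0.61, SE 0.20, adjusted p = 0.905). HSPB1 was at 345 and 318 CPM at 2.15 µM, against 536 and 458 CPM at 0.1 µM, also with no overlap (log2 fold change -0.59, SE 0.25, adjusted p = 0.931). HSPA1B had the log2 fold change furthest from 0, with 32.5 and 24.3 CPM at 2.15 µM against 47.8 and 61.0 CPM at 0.1 µM, also with no overlap (log2 fold change -0.93, SE 0.48, adjusted p = 0.952). These 3 genes, DNAJB1 and HSPH1 were lower at 2.15 µM in every library, 5 of the 10 against 18.7% of all genes, and 0 were wholly higher, against 20.4%. The log2 fold changes of DNAJB1 and HSPH1 were -0.38 (SE 0.29) and -0.30 (SE 0.22). In the other 5 genes the doses overlapped, with log2 fold changes of 0.00 for HSPA1A (SE 0.28), -0.11 for HSP90AA1 (SE 0.20), -0.21 for BAG3 (SE 0.52), -0.33 for HSPA5 (SE 0.22) and 0.37 for HSF1 (SE 0.59). An unadjusted p under 0.05 was reached by 2 of the 10 (HSPA8 and HSPB1) and by 5.3% of all genes.

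**Figure D2:**
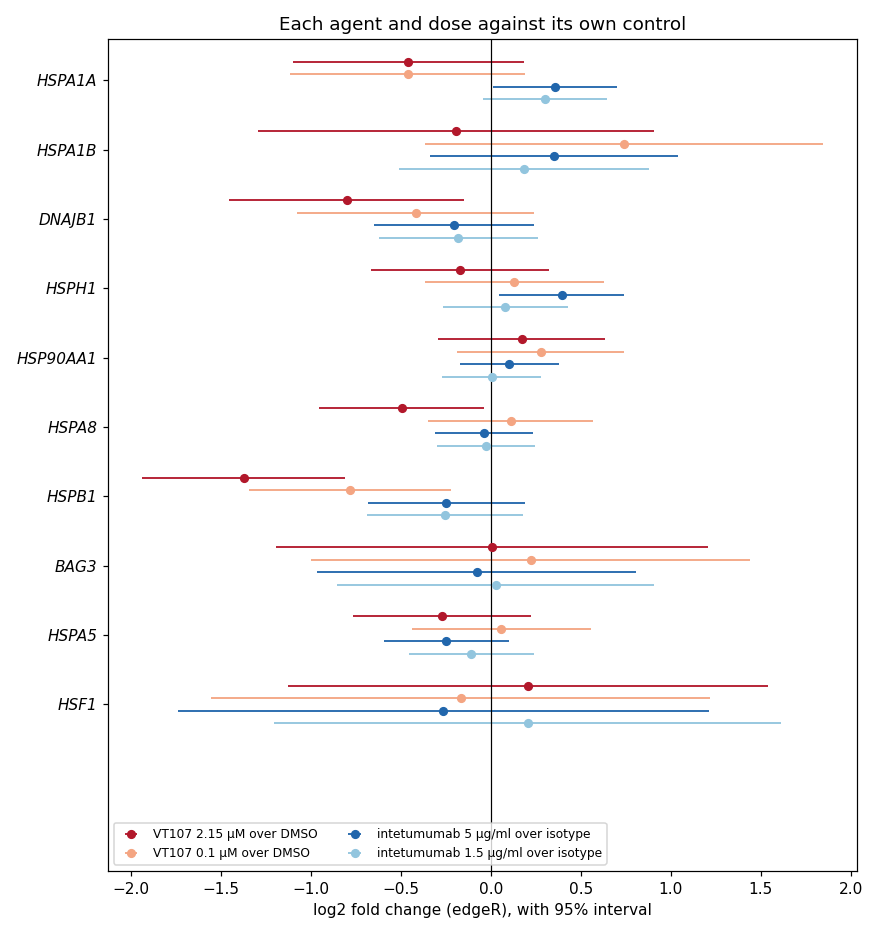
Log2 fold change (horizontal axis) of each of the 10 genes for each dose of VT107 over DMSO and of intetumumab over the isotype, from edgeR, with bars for the 95% interval before adjustment over genes. HSPB1 at 2.15 µM VT107 lies furthest from 0 (-1.37), and the bars of BAG3 and HSF1, the genes with the fewest counts, are among the widest.

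The intetumumab experiment asked the same of the antibody against ITGAV integrins. At 5 µg/ml the genes with the smallest p among the 10 were HSPH1 and HSPA1A, both with values above the isotype and neither called. HSPH1 was at 878, 756 and 890 CPM at 5 µg/ml, against 605, 516 and 801 CPM with the isotype. The third isotype library lay above the lowest treated one (log2 fold change 0.39, SE 0.16, edgeR adjusted p = 0.482). HSPA1A was at 318, 324 and 385 CPM at 5 µg/ml, against 294, 262 and 248 CPM with the isotype, with no overlap (log2 fold change 0.36, SE 0.16, edgeR adjusted p = 0.532). HSPA1B was at 58.2, 69.1 and 59.6 CPM, against 48.2, 54.0 and 45.0 CPM with the isotype, also with no overlap (log2 fold change 0.35, SE 0.32). The copies summed gave 0.36 (SE 0.16, edgeR adjusted p = 0.526).

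HSPB1 and DNAJB1 overlapped with the isotype at 5 µg/ml. HSPB1 was at 768, 705 and 420 CPM at 5 µg/ml, against 715, 739 and 790 CPM with the isotype (log2 fold change -0.25, SE 0.20). DNAJB1 was at 137, 143 and 98.9 CPM, against 146, 139 and 151 CPM with the isotype (log2 fold change -0.20, SE 0.20). In both genes the third library at 5 µg/ml stood well below the other two, which lay near the isotype libraries.

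HSPA8 was at 1171, 1419 and 1675 CPM at 5 µg/ml, against 1463, 1395 and 1524 CPM with the isotype (log2 fold change -0.04, SE 0.13, interval -0.31 to 0.24). HSP90AA1 was at 638, 644 and 696 CPM, against 534, 650 and 661 CPM with the isotype (log2 fold change 0.10, SE 0.13, interval -0.17 to 0.38). For both genes the interval leaves out a change of 1.5-fold in either direction. HSPA5 was at 235, 311 and 262 CPM, against 292, 326 and 346 CPM with the isotype, overlapping (log2 fold change -0.25, SE 0.16). BAG3 ranged from 11.2 to 45.6 CPM at 5 µg/ml and from 33.2 to 36.5 CPM with the isotype, and HSF1 from 7.97 to 35.8 CPM at 5 µg/ml and from 12.8 to 32.1 CPM with the isotype. The groups overlapped in both genes, with log2 fold changes of -0.08 (SE 0.41) for BAG3 and -0.26 (SE 0.68) for HSF1.

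By edgeR's test 0 of the 10 genes were called at 5 µg/ml, where 0.0887% of 9024 genes were called, and DESeq2 called 0 of the 10 and 1.02% of all genes. An unadjusted p under 0.05 was reached by 2 of the 10 and by 9.23% of all genes. The 2 were HSPH1 and HSPA1A, the latter with its even counts used as deposited. The median log2 fold change of the 10 was -0.06, against 0.00 over all genes. Libraries lay wholly above the isotype in 2 of the 10 (7.61% of all genes) and wholly below it in 0 (8.39%).

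At 1.5 µg/ml, set against the same isotype libraries, the log2 fold changes of the 10 genes lay between -0.25 and 0.30. HSPA1A was at 339, 293 and 358 CPM at 1.5 µg/ml, against 294, 262 and 248 CPM with the isotype, with an overlap of 1 library (log2 fold change 0.30, SE 0.16). HSPB1 was at 668, 532 and 680 CPM, against 715, 739 and 790 CPM with the isotype, with no overlap (log2 fold change -0.25, SE 0.20). DNAJB1 was at 125, 124 and 136 CPM, against 146, 139 and 151 CPM with the isotype, with no overlap (log2 fold change -0.18, SE 0.20). The other 7 genes overlapped with the isotype, among them HSPA1B (35.8 to 85.5 CPM at 1.5 µg/ml, against 45.0 to 54.0 CPM), HSPH1 (643 to 733 CPM, against 516 to 801 CPM), HSPA8 (1377 to 1504 CPM, against 1395 to 1524 CPM) and HSPA5 (275 to 312 CPM, against 292 to 346 CPM). Their log2 fold changes were 0.18 for HSPA1B (SE 0.32), 0.08 for HSPH1, -0.03 for HSPA8, -0.11 for HSPA5 (SE 0.16), 0.01 for HSP90AA1, 0.03 for BAG3 (SE 0.41) and 0.20 for HSF1 (SE 0.65). HSPB1 and DNAJB1 were the 2 of the 10 genes wholly below the isotype, against 6.85% of all genes, and 0 were wholly above it, against 5.5%. By its test edgeR called 0 of the 10 and 0% of all genes (smallest adjusted p among the 10, 0.927), 0 of the 10 had an unadjusted p under 0.05 (5.47% of all genes), and DESeq2 called 0 of the 10 and 0.355% of all genes.

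Between 5 and 1.5 µg/ml, edgeR and DESeq2 each called 0 of the 10, where edgeR called 0.0111% and DESeq2 0.0665% of all genes, and 0 of the 10 had an unadjusted p under 0.05 (5.64% of all genes). HSPH1 was at 878, 756 and 890 CPM at 5 µg/ml, against 643, 653 and 733 CPM at 1.5 µg/ml, with no overlap (log2 fold change 0.31, SE 0.16, adjusted p = 0.866). HSP90AA1 was at 638, 644 and 696 CPM at 5 µg/ml, against 636, 610 and 601 CPM at 1.5 µg/ml, with no overlap but a narrow gap (log2 fold change 0.10, SE 0.13). These 2 genes were wholly higher, against 5.6% of all genes, and 0 were wholly lower, against 5.29%. In the other 8 genes the doses overlapped. Their log2 fold changes were 0.06 for HSPA1A (SE 0.16), 0.17 for HSPA1B (SE 0.32), -0.03 for DNAJB1 (SE 0.21), -0.01 for HSPA8 (SE 0.13), 0.01 for HSPB1 (SE 0.20), -0.10 for BAG3 (SE 0.41), -0.14 for HSPA5 (SE 0.16) and -0.47 for HSF1 (SE 0.68).

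Whether the effect of VT107 (2.15 µM) differed from that of intetumumab (5 µg/ml) was tested directly in a fit of all 15 labelled libraries. The 10 genes gave 0 calls by edgeR, where 0.0782% of 10227 genes were called. HSPB1 had the difference furthest from 0, -1.13 (SE 0.33, adjusted p = 0.297), and DESeq2 called it (-1.16, adjusted p = 0.0305) together with 0.988% of all genes. HSPA1A followed with -0.81 (SE 0.29, adjusted p = 0.382), its log2 fold change being -0.46 with VT107 and 0.36 with intetumumab. Among the other 8 genes the difference was -0.54 for HSPA1B (SE 0.56), -0.59 for DNAJB1 (SE 0.32), -0.56 for HSPH1 (SE 0.27), 0.07 for HSP90AA1 (SE 0.21), -0.46 for HSPA8 (SE 0.23), 0.10 for BAG3 (SE 0.66), -0.02 for HSPA5 (SE 0.25) and 0.48 for HSF1 (SE 0.97). An unadjusted p under 0.05 was reached by HSPB1 and HSPA1A, 2 of the 10, and by 9.06% of all genes.

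The level in DMSO was set against that with the isotype, 2 controls that come from separate experiments, so that vehicle and experiment cannot be told apart. In the fit of 15 libraries 13.5% of 10227 genes were called between them. Of the 10 genes, 2 were called, HSPA8 and HSP90AA1, both lower in DMSO, against 6.73% of all genes called lower. HSPA8 was at 994 and 736 CPM in DMSO, against 1463, 1395 and 1524 CPM with the isotype (log2 fold change -0.76, SE 0.16, edgeR adjusted p = 0.00787). HSP90AA1 was at 405 and 367 CPM in DMSO, against 534, 650 and 661 CPM with the isotype (log2 fold change -0.67, SE 0.15, edgeR adjusted p = 0.00993). In both genes every DMSO library lay below every isotype library. Neither call held without DMSO replicate 2, where the log2 fold changes were -0.56 (adjusted p = 0.0769) for HSPA8 and -0.61 (adjusted p = 0.0644) for HSP90AA1, and where 10% of all genes were called.

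HSPA5 stood the other way, at 497 and 437 CPM in DMSO, against 292, 326 and 346 CPM with the isotype. Both DMSO libraries lay above all isotype libraries, and the difference missed the threshold (log2 fold change 0.54, SE 0.18, edgeR adjusted p = 0.0563). It was called by DESeq2 (adjusted p = 0.00862), under RLE scaling (0.0376), with counts divided by their common divisor (0.0473) and without VT107 0.1 µM replicate 1 (0.0499). In that order, these settings called 15.7%, 13%, 14.2% and 12.7% of all genes. HSPA1A was at 236 and 163 CPM in DMSO, against 294, 262 and 248 CPM with the isotype, with no overlap (log2 fold change -0.43, SE 0.21, edgeR adjusted p = 0.189). HSPB1 and DNAJB1, the genes with the largest fold changes at 2.15 µM VT107, overlapped between the controls (log2 fold changes 0.20, SE 0.23, and 0.09, SE 0.22). The log2 fold changes of the remaining genes were -0.58 for HSPA1B (SE 0.41), -0.28 for HSPH1 (SE 0.19), -0.52 for BAG3 (SE 0.48) and 0.07 for HSF1 (SE 0.69). An unadjusted p under 0.05 was reached by 3 of the 10 (HSPA8, HSP90AA1 and HSPA5) and by 28.2% of all genes. Groups did not overlap in 1 of the 10 genes with DMSO higher (22% of all genes) and in 4 with DMSO lower (HSPA8, HSP90AA1, HSPA1A and BAG3, against 22.9%).

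HSPA1A, HSP90AA1, HSPA8 and HSPA5 also parted the experiments over all their labelled libraries, a split described after the values were seen. HSPA1A lay between 126 and 236 CPM in the 6 libraries of the VT107 experiment and between 248 and 385 CPM in the 9 of the intetumumab experiment. HSP90AA1 lay between 367 and 491 CPM in the VT107 experiment and between 534 and 696 CPM in the intetumumab experiment. HSPA8 lay between 586 and 1016 CPM in the VT107 experiment and between 1171 and 1675 CPM in the intetumumab experiment. HSPA5 alone of these was higher in the VT107 experiment, at 355 to 549 CPM, against 235 to 346 CPM in the intetumumab experiment. Such a lack of overlap was found in 10.6% of all genes, 5.22% higher and 5.34% lower in the VT107 experiment. No sample of one experiment was measured in the other, so the part of the experiment in these levels cannot be told apart from that of the vehicle or the agent.

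**Figure D3:**
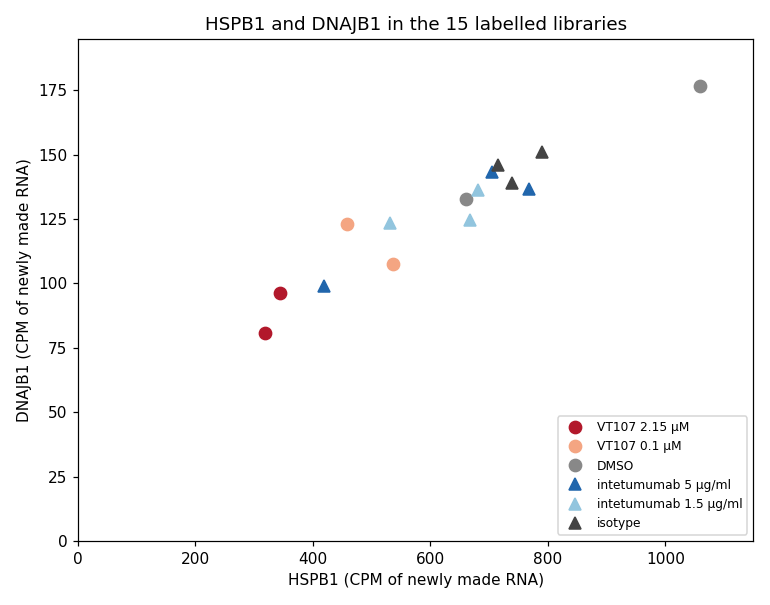
HSPB1 (horizontal axis) against DNAJB1 (vertical axis), both in CPM of newly made RNA on linear axes from 0, with 1 point for each of the 15 labelled libraries; circles are the VT107 experiment and triangles the intetumumab experiment. The points run from 318 and 80.8 CPM at 2.15 µM VT107 to 1060 and 177 CPM in a DMSO library.

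The 2 genes with log2 fold changes furthest below 0 at 2.15 µM varied together over all libraries. After each experiment's mean was taken out, log2 CPM of HSPB1 and DNAJB1 had a Pearson's r of 0.95 and a Spearman's rho of 0.88 over the 15 labelled libraries. By Pearson's r each gene was the other's closest match among all 10227 genes tested. By Spearman's rho other genes were closer, such as ENSG00000136238, with a rho of 0.925 with DNAJB1 and 0.929 with HSPB1. The pair had r of 0.95 (rho 0.94) within the 6 libraries of the VT107 experiment and 0.93 (rho 0.85) within the 9 of the intetumumab experiment. Among those 9, replicate 3 at 5 µg/ml was lowest in both genes (420 CPM for HSPB1 and 98.9 CPM for DNAJB1). The value of r without that library was not computed. With group means taken out, so that only the spread between replicates is left, r was 0.83 and rho 0.71. Without the 2 libraries farthest from the median of HSPB1 (DMSO replicate 1 and VT107 2.15 µM replicate 2) r was 0.88, and without both DMSO libraries it was 0.90. These values are a description over libraries that share experiments, treatments and scaling, and no p is given.

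The other pairs were far less alike. Over the 45 pairs of the 10 genes the median r was 0.12, the second highest was 0.64 (HSPA8 and HSPA5), and 25 pairs were above 0. The lowest was -0.65, for HSPA1B and HSF1, both of which had few counts in most libraries. The copies HSPA1A and HSPA1B had r of 0.27. Outside the 10 genes, ENSG00000163159 was closest to HSPB1 (r = 0.94) and ENSG00000136238 to DNAJB1 (r = 0.93), by Pearson's r. The files do not pair these IDs with names.

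**Figure D4:**
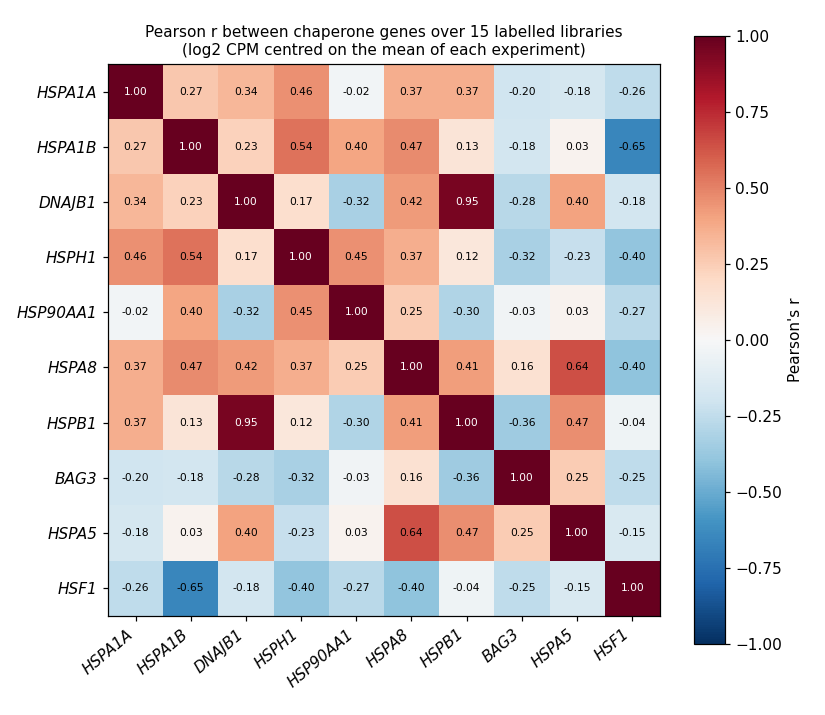
Pearson's r between log2 CPM of each pair of the 10 genes over the 15 labelled libraries, centred on the mean of each experiment, with colour running from -1 (blue) to 1 (red). HSPB1 and DNAJB1 stand apart at 0.95, and the next highest pair is HSPA8 and HSPA5 at 0.64.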

How the data were processed

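The authors deposited raw counts per gene ID for 17 libraries, which SLAM DUNK made from T>C reads, per the series design text. The genome build was GRCh38, per the submitters' processing notes. QuantSeq libraries cover transcript 3′ ends, per the labels' protocols. Pipeline settings, annotation and the handling of reads with several matches are not stated there and not given in the sources used.

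Counts of all genes were tested with edgeR 4.0.16 in R 4.3.3 (filterByExpr with a minimum count of 10, TMM scaling, quasi-likelihood F-test, two-sided). Benjamini-Hochberg adjustment ran over all genes tested, and calls needed an adjusted p under 0.05. Each experiment was fitted on its own (10083 and 9024 genes). DMSO against the isotype and the difference between agents used all 15 labelled libraries (10227 genes), whose TMM scaling also gives the CPM. Fits were also run on simulated counts, and the outcome of those runs is not reported here. Each library was counted as a separate sample. Libraries of 1 group differed by more than counting noise (chi-square per degree of freedom 3.82 to 9.11). Such a spread can also be technical and does not show that the libraries come from separate cultures. For likeness, log2 CPM had a prior count of 2. Alternatives were DESeq2 1.42.0, other scalings, filters and fits, the replicate number as a block, and each replicate left out. Genes to which DESeq2 gave no adjusted p were counted as not called, and its shares are of all genes fitted.

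All 10 genes are given in every comparison, called or not, by the rule for the genes named. The genes, lists and tests were chosen with earlier results of these data known. Wider chaperone lists and liver cell markers were not analysed here, because the tables used do not pair other Ensembl IDs with symbols, so the labelled cell type was not checked against its markers either.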

Additional observations from a re-analysis of the deposited data

Results flagged for a closer look

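Some chaperone genes had T>C counts in the libraries made without thiouridine, above the limit that a count of 0 allows in those libraries. Their totals were 10702 counts (VT107 experiment) and 4553 (intetumumab experiment), 0.949% and 0.628% of the mean labelled library. In the VT107 experiment HSPA8 had 7 counts and HSPA5 had 8, which is 0.826% and 1.67% of their mean labelled count. In the intetumumab experiment HSPH1 had 6 counts and HSPA8 had 12, which is 1.16% and 1.13% of their mean labelled count. HSPB1 had 3 counts and HSP90AA1 2 in the VT107 experiment, and both had 0 in the intetumumab experiment. HSPA1A, HSPA1B, DNAJB1, BAG3 and HSF1 had 0 counts in both, which allows a share of up to 0.0280% and 0.0659% of these libraries, for counting error only. With 1 such library per experiment there is no replicate check.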

How the results depend on the processing

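Of 1414 values of the 10 genes under alternatives, 1402 kept their side of the threshold and 0 reversed, where a value within 1 SE of 0 was given no direction. Values without an adjusted p were counted as not called. Of the 80 main results the only ones called were the 2 for DMSO against the isotype, so that most kept their side by staying uncalled. The count of chaperone genes called at 2.15 µM VT107 against DMSO was 1 (HSPB1) in place of 0 under DESeq2, without the filter on low counts and in the fit of all 15 libraries, and 0 to 1 with a library left out, the 1 being without DMSO replicate 2. Beside it, all genes called there were 253 of 10083 (2.51%) with DESeq2, 199 of 13575 (1.47%) without the filter, 155 of 10227 (1.52%) in the fit of all 15 libraries and 26 of 10552 (0.246%) without DMSO replicate 2. At 0.1 µM it was 1 (HSPB1) under DESeq2, which called 1.86% of all genes. The count for the difference between agents was 1 (HSPB1) under DESeq2, which called 0.988% of all genes. For DMSO against the isotype the count was 2 (HSPA8 and HSP90AA1) in the main fit, where 13.5% of all genes were called. Neither call held without DMSO replicate 2, where the log2 fold changes were -0.56 for HSPA8 and -0.61 for HSP90AA1. With no single library left out the count was 2 to 3. It was 3, with HSPA5 added, under DESeq2, RLE scaling and counts divided by a common divisor, which called 15.7%, 13% and 14.2% of all genes. In the other 4 comparisons it was 0 under every alternative run. The causes of these moves were not tested.

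The number of all genes called moved more: 1 to 253 (against 11) at 2.15 µM, 0 to 188 (0) at 0.1 µM, 0 to 7 (0) between the VT107 doses, 0 to 92 (8) at 5 µg/ml, 0 to 32 (0) at 1.5 µg/ml, 0 to 6 (1) between the intetumumab doses, 671 to 1605 (1378) for DMSO against the isotype and 1 to 101 (8) for the difference between agents. Scaling by the total count moved the median of all genes by 0.156 at 2.15 µM, 0.108 at 0.1 µM and 0.112 in the difference between agents (log2). The share of genes above DMSO at 2.15 µM was 61.9% in place of 51.7%, while 3 of the 10 genes stayed above 0 and 7 below. With that scaling 4 of the 10 lay above 0 in the difference between agents in place of 3, and 2 for DMSO against the isotype in place of 4. The number was 5 in place of 4 at 5 µg/ml and 7 in place of 6 at 1.5 µg/ml, and unmoved in the other comparisons. DESeq2 and RLE scaling gave 2 in place of 3 at 2.15 µM and 1 in place of 2 between the VT107 doses.

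Same-numbered libraries of different groups did not deviate together (r between -0.0232 and 0.0381 over genes). The labels do not state whether they share a culture or a day, and these r values cannot decide that. With the replicate block HSPB1 had a log2 fold change of -1.35 (edgeR adjusted p = 0.133) at 2.15 µM, 5 of all genes were called there in place of 11, and 0 of the 10 genes were called in each comparison that could have the block. DMSO against the isotype had none.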
